A study of Homo sapiens with 12 samples.

Results

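The genes described here are 10 members of the YAP and TAZ branch of the Hippo pathway: the coactivators YAP1 and WWTR1 (TAZ), the DNA-binding partners TEAD1, TEAD2, TEAD3 and TEAD4, the vestigial-like cofactors VGLL3 and VGLL4, and the kinases LATS1 and LATS2. They were taken by name from the 20037 protein-coding genes of the RefSeq annotation, and each accessible site whose summit lay inside a gene or within 10 kb of it was counted for that gene. Together they held 103 of the 188019 summits in the deposited list, in 83 intervals. No summit was counted for more than 1 of the genes.

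Accessibility was measured by ATAC-seq, in which a transposase cuts open chromatin and the cut fragments are sequenced. The cells were HT1080, an established human fibrosarcoma line, kept for 48 h in gels of rat tail collagen type I. The gels held 0.3 mg/mL collagen in the low group, 1.0 mg/mL in the medium group and 1.7 mg/mL in the high group, and each group had 4 libraries. GM6001 at 20 µM, which blocks many matrix metalloproteinases and so the cells' own digestion of the gel, was used for all 12 libraries. The study's title names confined migration and chromatin accessibility as its subject. The list used here was a single pooled list with no value per library or concentration, so nothing below is a comparison between concentrations, no replicate spread could be given, and the sequencing depth per library is unknown. Genes of mesenchymal cells had summits at their start sites in 5 of 5 cases (VIM, FN1, CD44, CDH2 and S100A4), and genes of other lineages in 2 of 7, beside 65.9% of all coding genes. The 5 mesenchymal genes were read at start sites of the promoter table, but 6 of the 7 others were not matched there and were read at their gene ends. Over all coding genes the share with a summit was 67.7% where start sites were listed and 59.3% where gene ends were used. The exceptions were EPCAM, with an enrichment of 2.11, and CD3E, with 14.5, whereas CDH1, ESRP1, PTPRC, PECAM1 and CDH5 had none. The mesenchymal genes had 15.1 (FN1), 9.96 (CD44), 8.95 (CDH2), 6.65 (S100A4) and 6.64 (VIM). The median over all coding genes with such a summit was 11.9, and by enrichment CD3E exceeded each mesenchymal gene but FN1. By fragments at the summit the order was another. VIM (2703), CD44 (1241) and FN1 (1216) exceeded CD3E (671), while CDH2 (561) and S100A4 (430) did not. All these markers were picked with earlier results of the data known, so their counts are no test of lineage.

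In the Hippo pathway, LATS1 and LATS2 phosphorylate YAP and TAZ, which keeps these coactivators in the cytoplasm or sends them to degradation. Unphosphorylated YAP and TAZ enter the nucleus, where they bind TEAD proteins, since they have no DNA-binding domain of their own. Vestigial-like proteins bind the same TEAD surface, and VGLL4 is known as a competitor of YAP. In adherent cells, stiff or spread conditions and actin tension favour nuclear YAP and TAZ, and LATS2 is itself a known target gene of YAP.

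Sequences upstream of transcription starts are shown for the genes whose start sites the results turn on, because they differ in base composition, in the letters bound by TEAD and AP-1 factors and in whether a summit lay there. They are the 250 bases before a start, from RefSeq on GRCh38.p14, written 5′ to 3′, and capitals mark matches to the TEAD letters GGAATG or the AP-1 letters TGANTCA on either strand. Of the 10 genes, 8 were matched in the promoter table, with 15 start sites in all. YAP1 and LATS2 were the genes with TEAD letters in the promoter window, which runs from 250 bases before to 50 after the start. The LATS2 match lay just past the start and is shown as 30 bases around it. LATS1 has a GC-rich start with a summit (given above its other start) and an AT-rich start without one. WWTR1 has a GC-rich and an AT-rich start, both with a summit. TEAD2 has a GC-rich start with no summit within 1000 bp.
YAP1, chr11:102110197-102110446, plus strand: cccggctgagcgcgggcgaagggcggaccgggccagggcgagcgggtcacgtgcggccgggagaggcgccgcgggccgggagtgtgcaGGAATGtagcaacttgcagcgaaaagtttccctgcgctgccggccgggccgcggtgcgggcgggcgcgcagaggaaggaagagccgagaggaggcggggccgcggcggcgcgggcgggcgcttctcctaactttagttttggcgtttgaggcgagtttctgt
LATS2, chr13:21061560-21061589, minus strand: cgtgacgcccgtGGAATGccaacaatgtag
LATS1, chr6:149718102-149718351, minus strand: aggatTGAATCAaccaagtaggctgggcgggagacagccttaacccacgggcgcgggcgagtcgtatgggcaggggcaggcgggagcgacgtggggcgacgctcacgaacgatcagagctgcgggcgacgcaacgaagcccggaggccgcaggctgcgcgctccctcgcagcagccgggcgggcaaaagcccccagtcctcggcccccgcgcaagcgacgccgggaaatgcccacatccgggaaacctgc
LATS1, chr6:149716426-149716675, minus strand: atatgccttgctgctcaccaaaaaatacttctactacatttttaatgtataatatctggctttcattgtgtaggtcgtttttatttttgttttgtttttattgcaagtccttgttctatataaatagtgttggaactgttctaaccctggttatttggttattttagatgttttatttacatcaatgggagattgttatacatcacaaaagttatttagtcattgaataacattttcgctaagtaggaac
WWTR1, chr3:149658026-149658275, minus strand: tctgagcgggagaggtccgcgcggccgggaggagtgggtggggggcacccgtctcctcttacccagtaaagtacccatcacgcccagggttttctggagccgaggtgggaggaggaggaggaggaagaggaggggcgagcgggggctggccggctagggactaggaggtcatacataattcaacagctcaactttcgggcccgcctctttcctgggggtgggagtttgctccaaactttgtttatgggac
WWTR1, chr3:149703274-149703523, minus strand: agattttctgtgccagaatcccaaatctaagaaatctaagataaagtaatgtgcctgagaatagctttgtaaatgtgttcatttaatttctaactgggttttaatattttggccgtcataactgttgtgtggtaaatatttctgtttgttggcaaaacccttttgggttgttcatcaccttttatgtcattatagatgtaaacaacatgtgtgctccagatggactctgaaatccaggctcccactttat
TEAD2, chr19:49362417-49362666, minus strand: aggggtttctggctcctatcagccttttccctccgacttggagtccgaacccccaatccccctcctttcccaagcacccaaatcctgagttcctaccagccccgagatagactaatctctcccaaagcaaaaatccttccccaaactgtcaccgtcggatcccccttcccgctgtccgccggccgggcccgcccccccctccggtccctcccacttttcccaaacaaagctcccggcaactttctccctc

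A summit lay within 1000 bp of a start site in 9 of the 10 genes, and TEAD2 was the exception. Across all protein-coding genes the share was 65.9% (13207 of 20037). Start sites were those listed in the promoter table, and for genes not matched there, TEAD1 and TEAD4 among them, either end of the gene was used. Each summit carries the authors' fold enrichment, the pileup over the local background. Units of pileup are called fragments here, although the settings that define them are not given. Pileup and background were recovered from the enrichment and p-value of each line. The highest start-site enrichment per gene had a median of 10.6 over the 9 genes and of 11.9 over the 13207, whose quartiles were 7.25 and 14.8. By this measure the start sites of the genes were of middle strength: 7 of the 9 lay below the median of all genes, and TEAD1 (15.1) and LATS2 (14.5) lay above it. TEAD3, at 4.65, lay at percentile 15.8.

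**Figure D1:**
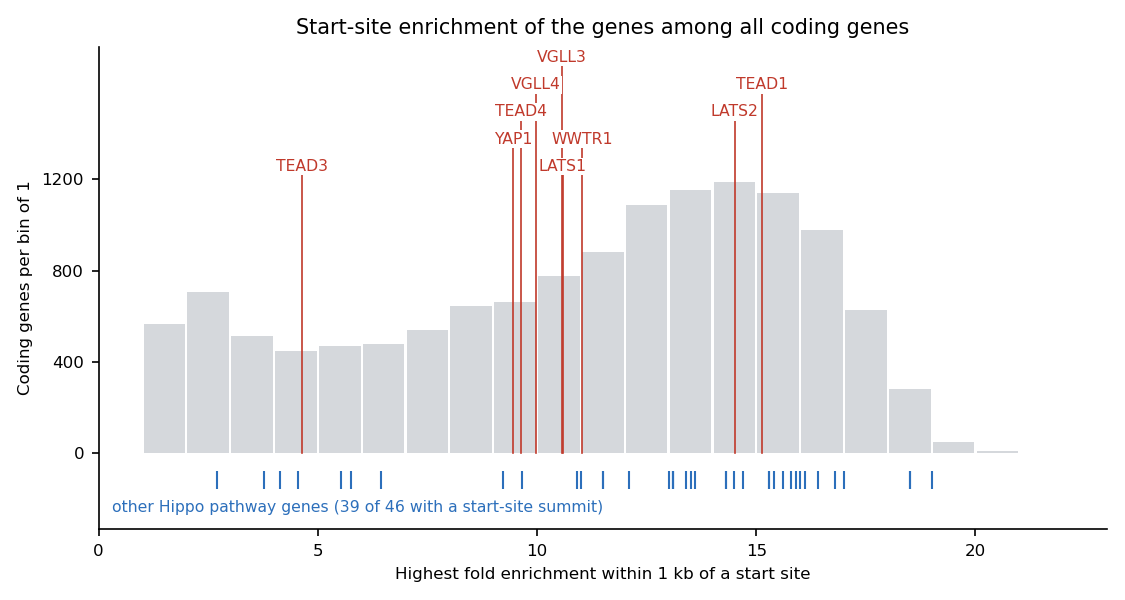
Grey bars give the number of coding genes (vertical axis) by the highest fold enrichment within 1 kb of a start site (horizontal axis), red lines mark the 9 genes with such a summit, and blue ticks mark the other Hippo pathway genes. TEAD3 stands apart at 4.65, TEAD1 and LATS2 lie at 15.1 and 14.5, and the other 6 lie between 9.45 and 11.0.

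Intervals given with enrichments below are exact Poisson 95% intervals of the pileup with the background held fixed. They cover counting error only, since the fragments are pooled over libraries and carry no molecular identifiers. At 2500 bp all 10 genes had a start-site summit, so the distance of 1000 bp decided the case of TEAD2. Just inside 1000 bp lay a VGLL4 summit at 959 bp (enrichment 8.05). Just outside lay summits of TEAD4 at 1064 bp (7.62), VGLL4 at 1076 bp (5.41), YAP1 at 1147 bp (3.49) and TEAD2 at 1185 bp (7.65).

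YAP1, the coactivator phosphorylated by the LATS kinases, spans 102110447 to 102233424 on chromosome 11 and held 11 summits in 7 intervals. At its start site the interval 102109925 to 102112280 held 4 summits, and the strongest lay 171 bp upstream with an enrichment of 9.45 (8.76 to 10.2) and a pileup of 684 fragments over a background of 71.5. The listed start of the noncoding gene YAP1-DT lay 181 bp from the same summit, so the signal belongs to a shared start region. The strongest YAP1 summit was deep in the gene, 115.6 kb downstream of the start, with an enrichment of 13.3 (12.3 to 14.4) and a pileup of 650 over a background of 47.95. The intervals of the pileups overlapped (634 to 737 at the start and 601 to 702 in the gene), so this order rested on the local backgrounds. Further summits stood 28.8 kb (11.5) and 68.0 kb (9.71) downstream of the start, and the remaining summits in the gene ranged from 1.68 to 5.63.

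WWTR1, which encodes TAZ, spans 149517235 to 149724788 on chromosome 3 and held 20 summits in 17 intervals, the largest number of the 10 genes. Both listed start sites carried a summit of the same enrichment with unlike coverage. At the start at 149658025 the enrichment was 11.0 (10.4 to 11.6) with a pileup of 1279 over a background of 115.1, and at the start at 149703273 it was 11.0 (9.77 to 12.4) with a pileup of 277 over a background of 24.2. The former summit lay 33 bp from the listed start of the antisense noncoding gene WWTR1-AS1. No summit lay within 1000 bp of either outer end of the annotated gene, so its accessible starts are internal to that annotation. Inside the gene the strongest other summits were at 149646385 (9.95), 149581971 (9.84) and 149576296 (9.32), and the last had a pileup of 1264, close to that at 149658025. The interval 149575533 to 149576532, which held it, lay 81.7 kb downstream of the nearest listed start.

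The 4 TEAD genes encode closely related factors that share the TEA DNA-binding domain, and they held 19 (TEAD1), 11 (TEAD4), 9 (TEAD3) and 3 (TEAD2) summits. Per 100 kb of gene and window the order was another: TEAD3 had 20.7, TEAD4 10.9, TEAD2 7.17 and TEAD1, the longest of the 10 genes, 6.54. TEAD1 spans 12674421 to 12944737 on chromosome 11. Its strongest summit, 128 bp outside the gene end at the lower coordinate, had an enrichment of 15.1 (14.3 to 16) and a pileup of 1270, and next came a summit 19.5 kb into the gene with 13.5 (12.7 to 14.5) and a pileup of 862. The other 17 summits were spread through the gene with enrichments of 2.63 to 9.47. TEAD4 spans 2959397 to 3040676 on chromosome 12. Near its lower end an enrichment of 9.64 (9.05 to 10.3) with a pileup of 999 over a background of 102.8 was found, and 39.7 kb into the gene an enrichment of 11.8 (10.9 to 12.8) with a pileup of 557 over a background of 46.2. TEAD4 therefore had its highest enrichment inside the gene and its highest pileup at the lower gene end. At its upper end a summit of 1.86 lay 695 bp outside the gene. In the same interval a summit of 7.62, with a pileup of 315, lay 1064 bp outside it.

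TEAD3, which spans 35473597 to 35497079 on chromosome 6, had many summits of low enrichment close together. Its 9 summits, in 5 intervals and with 2 of them in the flanks, gave the highest density of the 10 genes, at percentile 95.6 among all coding genes. At its start site the interval 35496248 to 35497804 held summits of 4.65 (4.15 to 5.18) and 3.91 (3.46 to 4.41), with pileups of 321 and 265. The summit of 3.91 was 844 bp from the listed start of the noncoding gene LOC124901309 and 585 bp from an end of TULP1. Elsewhere within TEAD3 no enrichment exceeded 3.56, at a summit whose pileup of 432 over a background of 120.57 was above that at the start. The strongest summit of its window (11.0, pileup 1427) was 5.22 kb outside the gene and 20 bp from the start of RPL10A, a ribosomal protein gene, so it lies at a neighbouring promoter. TEAD2, on chromosome 19 from 49340595 to 49362416, had 1 summit inside the gene (7.57, 6.54 to 8.72; pileup 191). The summit 1185 bp upstream of its start (7.65, 6.71 to 8.70; pileup 233) was 276 bp from a listed start of DKKL1, the overlapping neighbour. Its remaining summit, with 5.09, was 8.77 kb outside the gene.

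VGLL3 and VGLL4 encode TEAD cofactors that carry no DNA-binding domain, and their loci contrasted in the number and place of summits. VGLL3, on chromosome 3 from 86937973 to 86991149, had 1 summit at its start, 73 bp upstream, with an enrichment of 10.6 (9.56 to 11.7) and a pileup of 397. No summit lay within its gene body of 53.2 kb, and the other summit (6.75) lay 8.74 kb outside the gene. Among coding genes of 50 kb or more with a start-site summit, 12.7% likewise had no other summit inside the gene, and of the 8 such genes here VGLL3 was the 1 that had none.

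VGLL4 spans 11556067 to 11721815 on chromosome 3, and its strongest summit was the strongest of all 103. That summit, at 11600696 in the interval 11600472 to 11601100, had an enrichment of 17.6 (16.8 to 18.4) and a pileup of 1859 over a background of 104.9. It was 3885 bp downstream of the nearest listed start, at 11604581, which had no summit within 1000 bp. No end or listed start of another gene was within 1000 bp of it. The other 4 listed starts of VGLL4 had summits, with highest enrichments of 9.98 (at 11568798), 8.05 (at 11720539), 6.72 (at 11643915) and 3.05 (at 11582356). At 11720539 the summit of 8.05 lay 959 bp from the start, and the nearest summit, 41 bp away, had 3.08 with a pileup of 124. The summit of 9.98 also lay inside the overlapping autophagy gene ATG7. A further summit in the gene, at 11610201, reached 12.2 (11.1 to 13.3). VGLL4 thus had the 2 summits of highest enrichment in its gene away from its listed starts.

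LATS1 and LATS2, the kinases that phosphorylate YAP and TAZ, each had a summit within 10 bp of a listed start site. At LATS1, on chromosome 6 from 149658153 to 149718101, the summit lay 6 bp upstream of the start at 149718101 with an enrichment of 10.6 (9.71 to 11.5) and a pileup of 531. The listed start of the noncoding gene LOC645967 was 486 bp from the same summit. The other listed start of LATS1, at 149716425, had no summit within 1000 bp. The remaining summits inside LATS1 were weak, at 2.11 and 1.74 with pileups of 44 and 36. The strongest summit in the LATS1 window (16, pileup 856) was 9.44 kb outside the gene and 2 bp from a listed start of KATNA1, which encodes a microtubule-severing subunit. A summit of 5.68, 5.90 kb outside the gene, was 315 bp from an end of the nuclear pore gene NUP43.

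LATS2, on chromosome 13 from 20973036 to 21061586, held 13 summits. At its start the summit lay 7 bp upstream with an enrichment of 14.5 (13.6 to 15.5) and a pileup of 948. A summit 8.22 kb upstream had 12.2 (11.1 to 13.5) with a pileup of 405 and lay inside the noncoding gene LOC105370104. Within the gene, 10 summits had lower enrichments of 1.97 to 6.35. Comparing the kinases, the enrichment at the start was 14.5 at LATS2 and 10.6 at LATS1. The counting intervals hold no replicate spread, so this difference was not tested. Summits per 100 kb were 12 at LATS2 and 6.25 at LATS1, against a median of 5.89 over all coding genes.

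**Figure D2:**
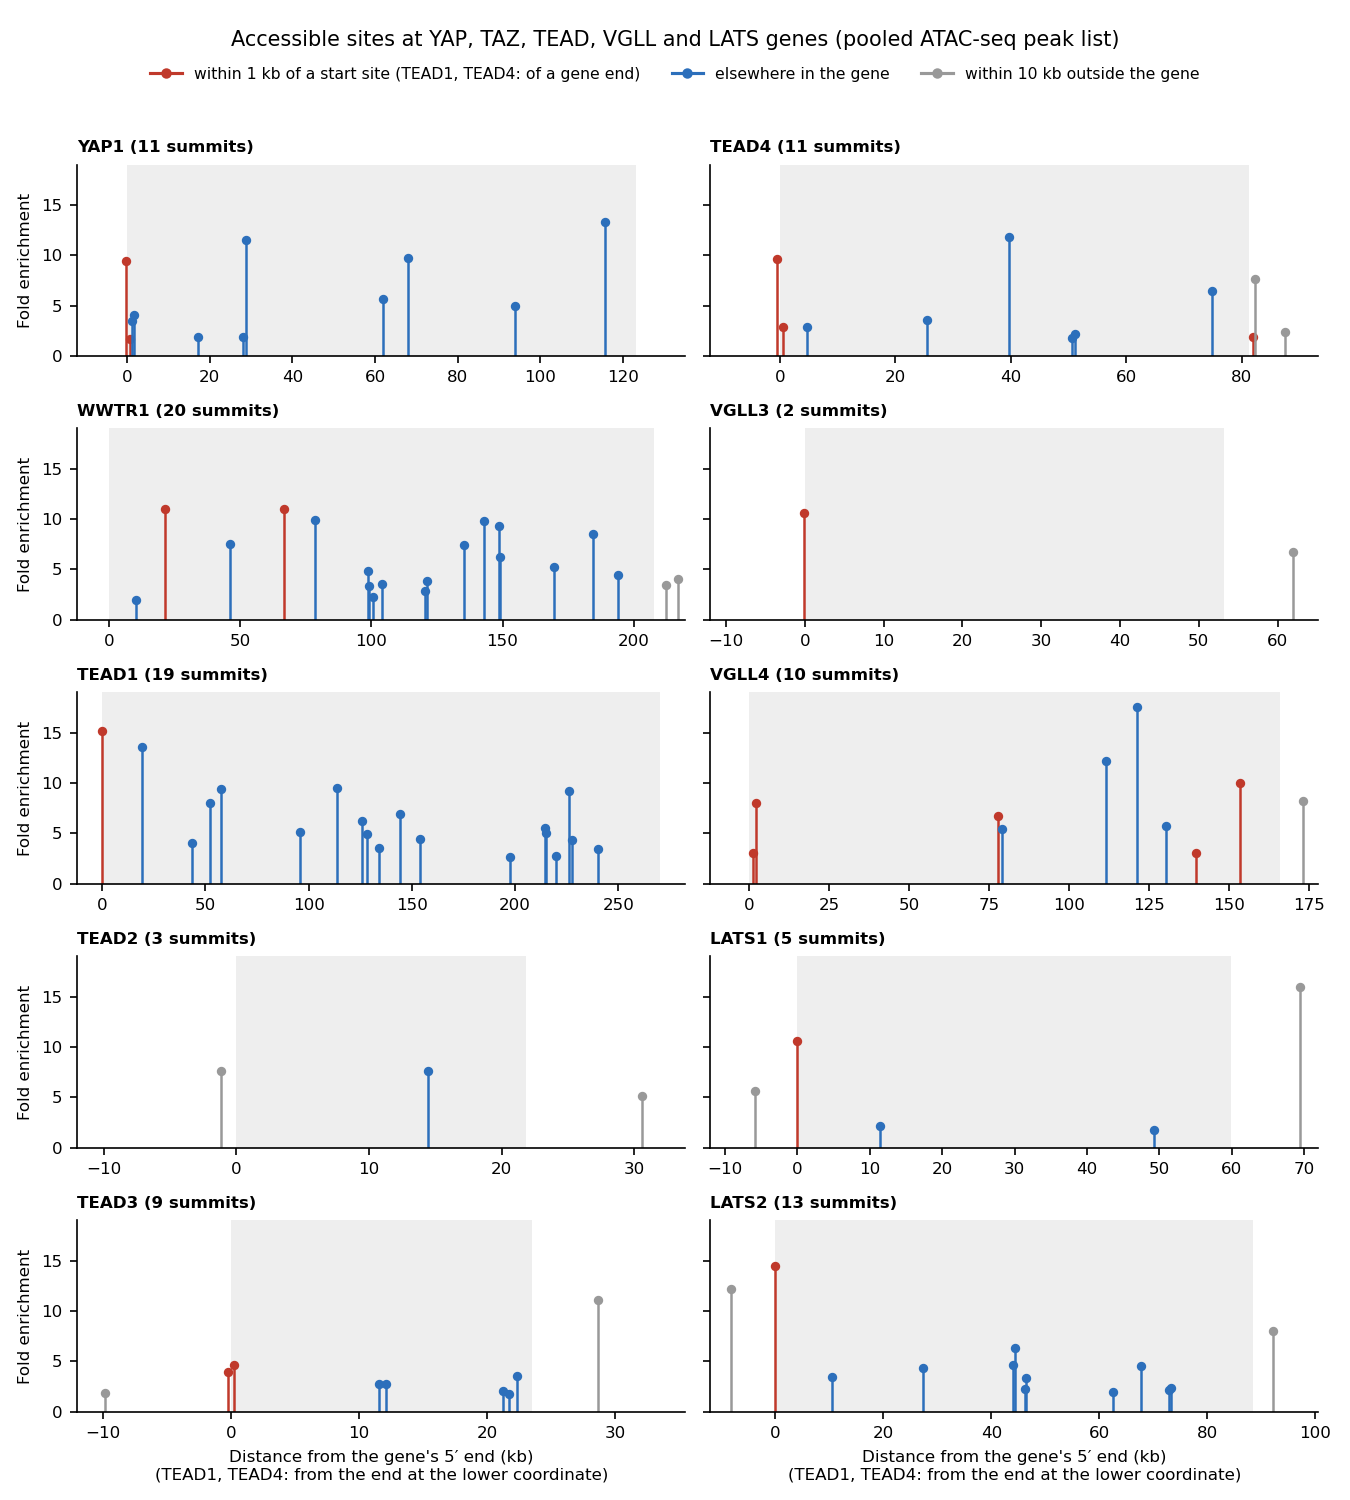
Each panel plots the fold enrichment of every summit (vertical axis) against its distance in kb from the 5′ end of the gene, or for TEAD1 and TEAD4 from the end at the lower coordinate, with the gene shaded grey. Red marks summits within 1 kb of a start site, blue those elsewhere in the gene and grey those outside it; VGLL3 has no summit inside the gene, and the tallest summit of all, 17.6, is inside VGLL4.

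Most summits of the 10 genes lay away from start sites: 71 of 103 (68.9%) in gene bodies, 18 (17.5%) within 1000 bp of a start site and 14 (13.6%) in the 10 kb flanks. Over the windows of all coding genes, with a summit counted once per gene, 50.6% lay in gene bodies, 19% at start sites and 30.4% in flanks. Among coding genes of 50 kb or more the shares were 72.8%, 13.4% and 13.8%, and for the 8 genes of that length here they were 71.4%, 17.6% and 11%. The 10 genes are longer than most, with a median of 84.9 kb against 24.1 kb over all coding genes, and a longer gene has more room for summits. Summits per 100 kb had a median of 7.43 over the 10 genes, with a range of 2.73 (VGLL3) to 20.7 (TEAD3), and the quartiles over all coding genes were 2.74 and 10.6. The enrichment of single summits had a median of 4.92 here and of 4.27 over the whole list.

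In 5 of the 9 genes with a start-site summit, the highest enrichment stood away from the start sites: YAP1, TEAD3, TEAD4, VGLL4 and LATS1. Among all coding genes with a start-site summit and 2 or more summits the share was 39.6%, and among those with 5 or more it was 49.8%, where the count here was 5 of 8. At TEAD3 and LATS1 the summit lay at a start of another coding gene, RPL10A or KATNA1, as did 33.8% of such summits over all coding genes. With the flanks left out, YAP1, TEAD4 and VGLL4 remained, 3 of 9, against 21.4% of all coding genes. With the highest pileup of any start-site summit set against the highest elsewhere, the genes were TEAD3, VGLL4 and LATS1, also 3 of 9, against 37.3%. VGLL4 was thus the gene whose own body held its strongest summit by both measures.

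**Figure D3:**
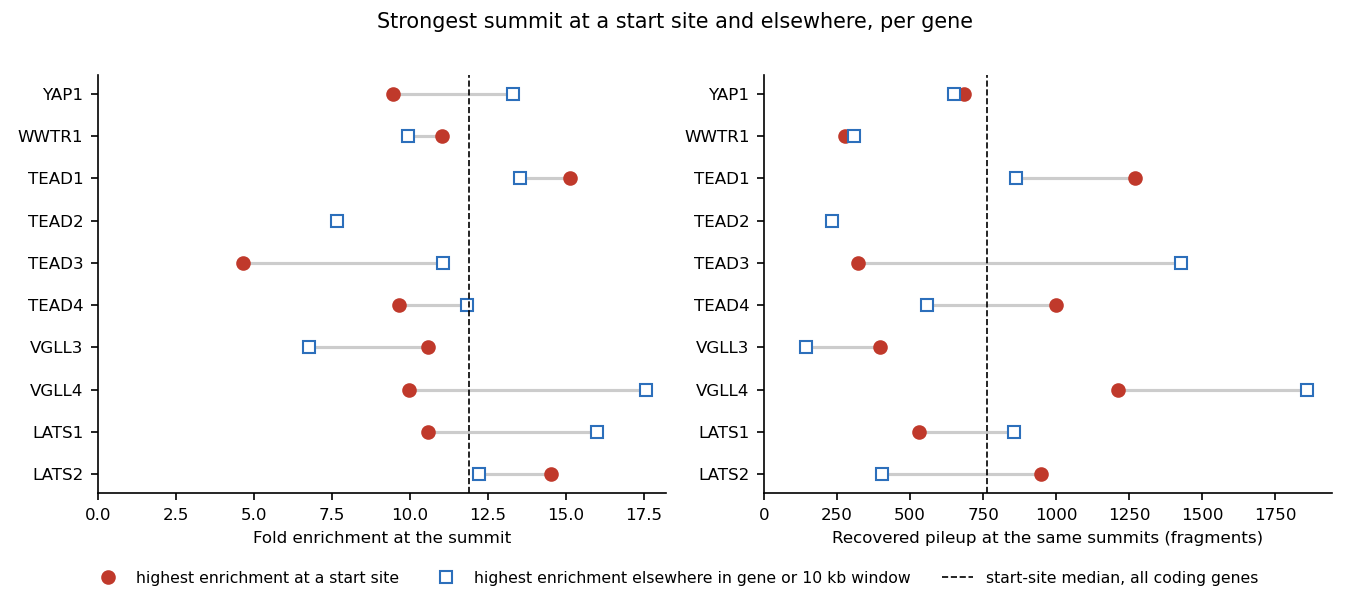
For each gene the filled circle is the start-site summit of highest fold enrichment and the open square the summit of highest enrichment elsewhere in the gene or its 10 kb window, by enrichment (left) and by the recovered pileup of the same summits (right); dashed lines give the start-site median of all coding genes, 11.9 and 765. At YAP1 and TEAD4 the square lies right of the circle for enrichment and left of it for pileup, while at VGLL4 it lies right in both; the WWTR1 circle is the start-site summit with a pileup of 277, left of its square at 309, and not the one with a pileup of 1279.

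Of the 15 listed start sites, 11 had a summit within 1000 bp (73.3%), against 62.7% of the 22199 listed start sites of all coding genes. Among the 4 genes with more than 1 listed start, LATS1 and VGLL4 had a summit at some but not at each of them; over all coding genes with 2 or more starts this was so in 33.2%. The promoter windows of the 11 starts with a summit had a GC content of 37.0 to 81.3% (median 63.0), and those of the 4 without had 30.3, 41.0, 64.0 and 67.7%. Over all coding genes a summit was present at 11.6% of starts below 40% GC, 27.8% at 40 to 50%, 56.9% at 50 to 60%, 75.3% at 60 to 70% and 82.2% at 70% or more. The starts at 30.3% (LATS1) and 41.0% (VGLL4) lay in classes where most starts had no summit. WWTR1 at 149703273 had a GC content of 37.0% and yet an enrichment of 11.0. Both TEAD2 starts, at 64.0 and 67.7%, had no summit within 1000 bp in a class where most had one. The same summit was nearest to both TEAD2 starts, 1185 and 2084 bp upstream. For the LATS1 start at 30.3% the nearest summit was 1682 bp upstream, and for the VGLL4 start at 41.0% it was 3885 bp downstream. The distance of 1000 bp thus decided the TEAD2 and LATS1 starts, which a distance of 2500 bp would count as having a summit. The part of base composition in these differences was not tested.

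**Figure D4:**
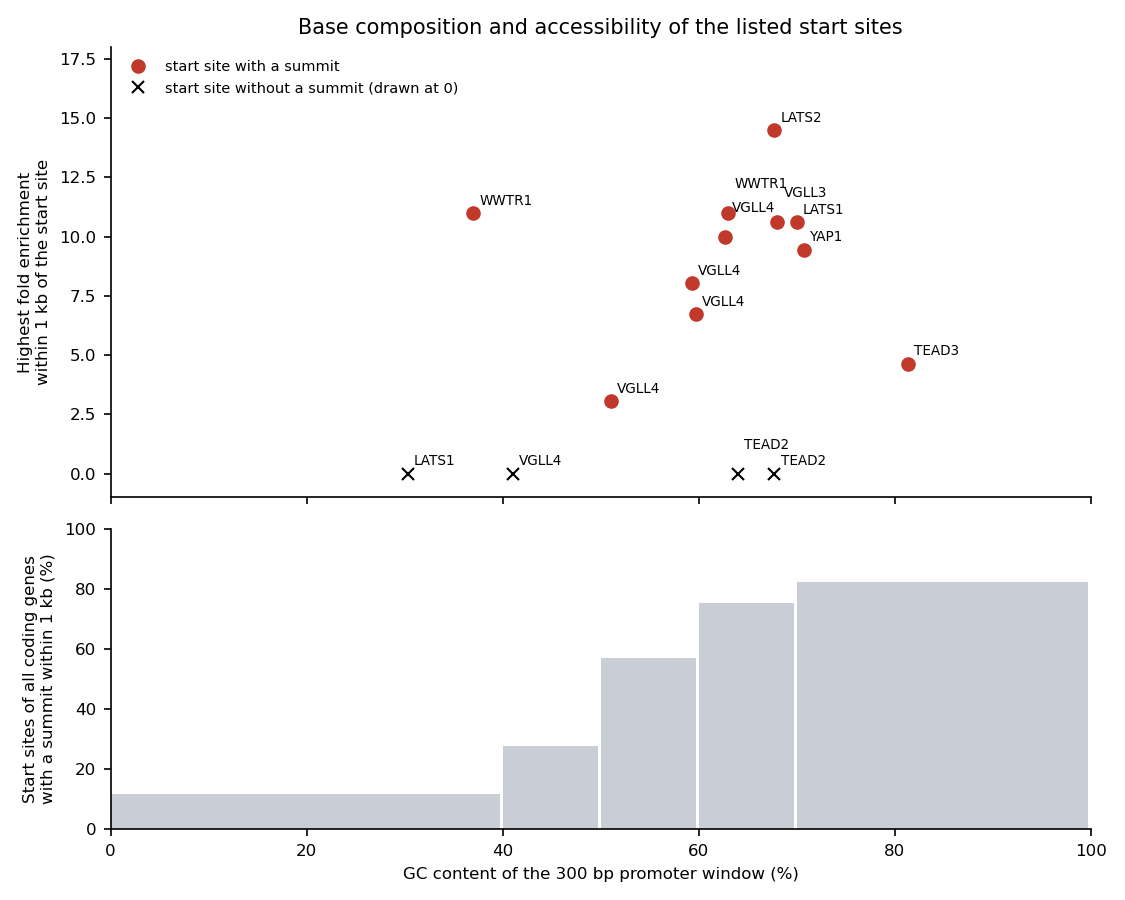
In the upper panel each point is 1 of the 15 listed start sites, by the GC content of its 300 bp promoter window (horizontal axis) and the highest fold enrichment within 1 kb (vertical axis), with crosses for starts without a summit. Bars in the lower panel give the percent of all coding gene starts with a summit per class of GC content, from 11.6% to 82.2%. WWTR1 at 37.0% GC has a summit in the class of 11.6%, and the TEAD2 crosses at 64.0 and 67.7% lie in the class of 75.3%.

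The letters of 9 factors were searched on both strands of the 300 bp promoter windows. GGAATG, the core bound by TEAD factors, occurred in 2 of the 15 windows, those of YAP1 and LATS2, and in 12.2% of the windows of all coding genes. Among the latter it was in 10.7% of windows at starts with a summit and in 14.8% at starts without one. In YAP1 the match began 162 bases before the start, 9 bp from the summit, and in LATS2 it began at base 10 of the transcript, 16 bp from the summit. Of the 9344 windows of coding genes that contained a summit, 1.61% had such a match within 20 bp of one. This distance was set after the values of 9 and 16 bp were seen, so both matches were certain to pass it. The share is therefore no comparison for them. The AP-1 letters TGANTCA occurred once, in LATS1, 245 bases before the start and 233 bp from the summit, and in 6.15% of all windows. GGGCGG, the GC box of SP and KLF factors, was the most frequent, in 9 of 15 windows and 56.3% of all. CCAAT, bound by NFY, was found in 3 of 15 and 34.7%. The letters CCGGAAG (ETS), TGACGTCA (CREB), GCGCATGC (NRF1) and TGTGGTT (RUNX) and the CArG box of SRF were in none of the 15, and in 12.8%, 2.26%, 3.74%, 3.69% and 1.25% of all windows. A GGAATG match and a CCGGAAG match can overlap only by their end letters. A match describes letters in the reference and is not evidence of binding.

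The other genes of the pathway were read from a list of 46 with known roles upstream of YAP and TAZ or beside them. A start-site summit was found in 39 of the 46 (84.8%), compared with 65.9% of coding genes, and the median of the highest start-site enrichment was 13.5 in those 39. Of the core kinases and adaptors that activate LATS (STK3, STK4, SAV1, MOB1A and MOB1B), 4 of 5 had one, with a median of 15.0. The MAP4K, TAOK and related kinases had one in 9 of 11 (median 14.3), and the STRIPAK phosphatase complex, which inactivates the core kinases, in 7 of 7 (median 15.8). The proteins grouped by a role in degradation within the pathway had one in 5 of 5 (median 14.3). The cortical and polarity proteins had one in 10 of 13 (median 13.3), and the LIM proteins that bind LATS in 3 of 3 with lower enrichments (median 5.75). The highest values were at TAOK2 (19, pileup 2724), NF2 (18.5, pileup 3358), the tumour suppressor also called Merlin, and STRN (18.5, pileup 2835). Low values were found at WWC1 (3.78) and VGLL2 (4.13).

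Start-site summits were missing at STK3, DLG5, DCHS1, TAOK3, FRMD6, MAP4K1 and VGLL1. For STK3, DLG5 and DCHS1 the gene ends stood in for start sites. Elsewhere in the gene or within 10 kb, STK3 (the MST2 kinase) had 24 summits with an enrichment of up to 16.4, FRMD6 had 21 (up to 18.2), DLG5 12 (13.0), TAOK3 8 (15.3), MAP4K1 4 (16.5) and DCHS1 2 (12.4). VGLL1 was the gene of the list with 0 summits in its whole window.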

How the data were processed

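Per the submitters' processing notes, the tools were fastp 0.20.0, Bowtie2 2.4.3, SAMtools, deepTools 3.5.0 and MACS2 2.2.7.1, with build hg38; their settings and how the 12 libraries were pooled are not given in the sources used here. The authors' deposited table gives for each summit a score, a fold enrichment (a ratio over the local background), a −log10 p and a −log10 q of at least 1.30. All are the authors' values. Because enrichment divides by the local background, a summit with a high background has a lower enrichment at the same pileup.

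Pileup and background were recovered with scipy 1.17.1 by taking enrichment as (pileup + 1)/(background + 1) and p as a Poisson tail. A whole pileup met the deposited −log10 p within 0.0026 of the step that 1 fragment makes, at every summit of the 10 genes. The recovery, the start-site match and the motif search were tested on made-up values with known answers. The lowest background was 20.32 fragments.

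Genes came from RefSeq GRCh38.p14. Promoter windows (250 bases before to 50 after a start) covered 15843 of 20037 coding genes (79.1%). No test was made: counts stand beside the share over all coding genes. All 10 genes are named, with the 3 highest, the 3 lowest and those without a start-site summit of the pathway list. Of the lowest, 1 gene is not reported here. Genes, lists and motifs were chosen with earlier results of these data known. Alternatives were other windows, a −log10 q of at least 10, intervals in place of summits, gene ends and narrower motif windows. Motifs at summits in the genome were not analysed here for want of genome sequence.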

Additional observations from a re-analysis of the deposited data

How the results depend on the processing

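The 103 summits at the 10 genes became 81 in gene bodies alone, 88 at a −log10 q of at least 10, 83 with each interval counted once and 139 with a window of 50 kb. Of the 10 genes, 9 had a start-site summit at 500 bp, against 61.5% of all coding genes. At the stricter q it was 9, against 60.8%, and at 2500 bp it was 10, against 72.3%. With either gene end it was 7 of 10, close to the 65.7% of all coding genes, and WWTR1, VGLL4 and TEAD2 had none. With the 5′ end of the gene alone, the count fell to 5 of the 8 genes with a strand. There was no share of all coding genes to set beside it, so it cannot be placed above or below them. The pathway list gave 37 at 500 bp, 39 at the stricter q and 43 at 2500 bp, beside the same shares of all coding genes. The median start-site enrichment was 10.3 to 10.6, and the median density 6.56 to 7.43 per 100 kb. In a motif window of 200 bp, GGAATG was found in 1 of 15 starts, with no share of all windows at that width to set beside it. The highest value away from start sites, an alternative added after the data were seen, applied to 3 genes by pileup, and to 3 without flanks, in place of 5. Motifs at the strongest summit of each interval were not run. No paired analysis was possible because the pooled list has no replicates, and none could be left out. Depth per library is unknown, so weak summits cannot be ranked beyond counting error.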
